A study of Mus musculus with 12 samples.

Results

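The heavy chains of MHC class I are the membrane proteins that hold a peptide at the cell surface for inspection by T cells and natural killer cells. Their transcripts were followed in CT26, a mouse colon carcinoma line of BALB/c origin. The 8 genes examined were H2-K1, H2-D1, H2-Q4, H2-Q7, H2-T22, H2-T23, H2-T24 and H2-M3, chosen by their symbols among the 23636 symbols of the deposited table. Cells were cultured for 8 hours in 4 conditions with 3 biological replicates each: untreated, CX3CL1 alone at 2 µg/ml, IFN-γ alone at 100 ng/ml, and IFN-γ + CX3CL1 at these same doses. All 12 libraries came from the same cell line, and the labels name no engineered allele in any group. The samples are bulk RNA from a line in culture, so fewer cells making a transcript and less of it per cell cannot be told apart.

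MHC class I molecules consist of a polymorphic heavy chain and the invariant light chain β2-microglobulin, and are loaded in the endoplasmic reticulum with peptides that the proteasome makes and the TAP transporter delivers. IFN-γ is the cytokine best known for raising class I transcription, through factors that include IRF1 and the transactivator NLRC5. CX3CL1 is a chemokine whose receptor is CX3CR1. H2-K1 and H2-D1 encode the classical chains, which show peptides to CD8+ T cells. The others are non-classical: H2-Q4 encodes Qb-1, H2-Q7 encodes Qa-2, H2-T23 encodes Qa-1, which presents leader peptides of other class I chains to the NKG2A receptor of natural killer cells, H2-M3 presents N-formylated peptides of bacteria and mitochondria, and H2-T22 is bound by a subset of γδ T cells.

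All 8 genes lie on chromosome 17 in the H2 complex (GRCm38 positions of the GENCODE annotation). H2-K1 lies at chr17:33996017-34000347 on the minus strand, at the opposite end of the class II region from the others. H2-D1 at chr17:35262730-35267499, H2-Q4 at chr17:35379617-35385290 and H2-Q7 at chr17:35439155-35443773 lie on the plus strand. H2-T24 at chr17:36005695-36020560, H2-T23 at chr17:36029773-36032855 and H2-T22 at chr17:36037128-36042747 lie on the minus strand, and H2-M3 at chr17:37270220-37274484 on the plus strand. Identity between the coding sequences of the 8 genes, over 28 pairs, ran from 60.03% to 88.6% with a median of 68.8%, and H2-K1 and H2-D1 were the most alike.

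RefSeq promoter windows, from 250 bases before to 50 bases after the start site (build GRCm38.p6), were found for 7 of the 8 genes. H2-T24 had none. They are shown because class I genes carry a conserved enhancer before the start site, with a κB element and an interferon element. The 80-base stretches are printed 5′ to 3′ on the strand of each gene. Capitals mark matches of 4 letter patterns: TTTCACTTC, GAAANNGAA on the other strand, GGGANNCCC and GGGATTTCC.
H2-K1, chr17:34000408-34000487, minus strand: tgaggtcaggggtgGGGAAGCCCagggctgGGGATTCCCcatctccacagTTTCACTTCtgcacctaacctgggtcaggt
H2-D1, chr17:35262894-35262973, plus strand: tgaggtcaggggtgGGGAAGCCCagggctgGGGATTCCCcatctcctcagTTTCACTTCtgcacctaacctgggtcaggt
H2-Q4, chr17:35379414-35379493, plus strand: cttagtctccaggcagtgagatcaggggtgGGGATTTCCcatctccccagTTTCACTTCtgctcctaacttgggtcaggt
H2-Q7, chr17:35438992-35439071, plus strand: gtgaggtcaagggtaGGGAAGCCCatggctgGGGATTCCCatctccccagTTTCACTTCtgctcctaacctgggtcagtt
H2-M3, chr17:37270083-37270162, plus strand: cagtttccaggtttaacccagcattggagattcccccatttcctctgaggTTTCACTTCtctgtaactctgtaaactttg
H2-T23, chr17:36032795-36032874, minus strand: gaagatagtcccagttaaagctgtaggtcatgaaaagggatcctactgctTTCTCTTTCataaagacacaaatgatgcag
H2-T22, chr17:36042903-36042982, minus strand: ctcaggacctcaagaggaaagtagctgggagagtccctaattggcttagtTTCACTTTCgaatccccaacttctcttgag

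Patterns were searched on both strands over the whole windows. The interferon response pattern GAAANNGAA matched H2-T23 and H2-T22, 2 of the 7 genes, and 8.56% of 32851 windows of all genes. The κB pattern GGGANNCCC matched H2-K1, H2-D1 and H2-Q7, 3 of 7, against 5.66% of all windows, and its matches on the plus and minus strands overlapped at GGGATTCCC. The letters TGACG, part of the X2 box of the promoter module through which NLRC5 acts, were in 6 of 7 and in 20.8% of all windows, and CCAAT was in 7 of 7 and in 37.4%. After these windows had been read, TTTCACTTC and GGGATTTCC were added, as stretches seen in them. The first is in the windows of H2-K1, H2-D1, H2-Q4, H2-Q7 and H2-M3, 5 of 7, and in 0.505% of all windows, and the second is in H2-Q4 alone and in 0.323%. They describe the reference genome, not the CT26 alleles, and a match is neither a site nor a cause.

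Values are TPM, transcript counts corrected for transcript length and scaled to the same total in each library. CT26 carries the H2 haplotype d and the mm10 reference haplotype b. Levels of polymorphic genes may therefore be understated, to an extent that can differ between genes, and how far was not tested. Orders, shares and ratios between genes below are those of the values as listed. Of 8 markers read for the line, the epithelial ones were mostly absent. EPCAM was listed at 0 in all libraries, and CDH1 and VIL1 reached at most 0.0430 and 0.0412 TPM. Only the epithelial KRT18 (18.4 to 53.6 TPM) and VIM (3208 TPM in the mean), a mesenchymal marker, passed the filter on low values. With IFN-γ alone KRT18 fell by 0.68 on the log2 scale (limma adjusted p = 0.0346) and VIM had −0.54 (adjusted p = 0.164), and their part in the results below was not tested. Of 6 leukocyte markers, 1 passed the filter on low values, CD68, and PTPRC reached at most 0.0441 TPM. Replicates within a group had Pearson correlations of 0.984 to 0.996. CX3CL1 replicate 2 stood apart. Its absolute log2 difference from replicates 1 and 3 had medians of 0.266 and 0.262 over genes, whereas those replicates differed by 0.141.

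As listed, H2-K1 was the most abundant heavy chain in every library. Untreated libraries held 311, 212 and 231 TPM of H2-K1, and IFN-γ libraries held 1203, 918 and 1122 TPM. With CX3CL1 alone it was at 486.5, 299 and 445.6 TPM, and with both agents at 1077, 892 and 1050 TPM. Every library with IFN-γ lay above every library without it, and the lowest CX3CL1 library, replicate 2, lay below the highest untreated library.

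H2-D1 followed H2-K1 at a lower level, with 195, 111 and 121 TPM in the untreated libraries and 661, 459 and 523 TPM with IFN-γ. CX3CL1 libraries held 255, 128 and 200 TPM and overlapped the untreated ones. Libraries with both agents held 529.5, 434 and 518 TPM. The within-group correlation of log2(TPM + 1) between H2-K1 and H2-D1, over 12 libraries after subtraction of group means, was 0.974, as a description of genes that share a library and reads of a like sequence.

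H2-Q4 was the third most abundant chain in untreated cells and lay above H2-D1 in 4 of the 9 treated libraries. It was at 87.4, 49.9 and 63.2 TPM in untreated cells and at 218.3, 138 and 223.3 TPM with CX3CL1, and the groups did not overlap. IFN-γ libraries held 438, 398 and 539.3 TPM, and libraries with both agents 460.2, 419.6 and 550.1 TPM. These last groups overlapped each other and lay above all the rest.

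**Figure D1:**
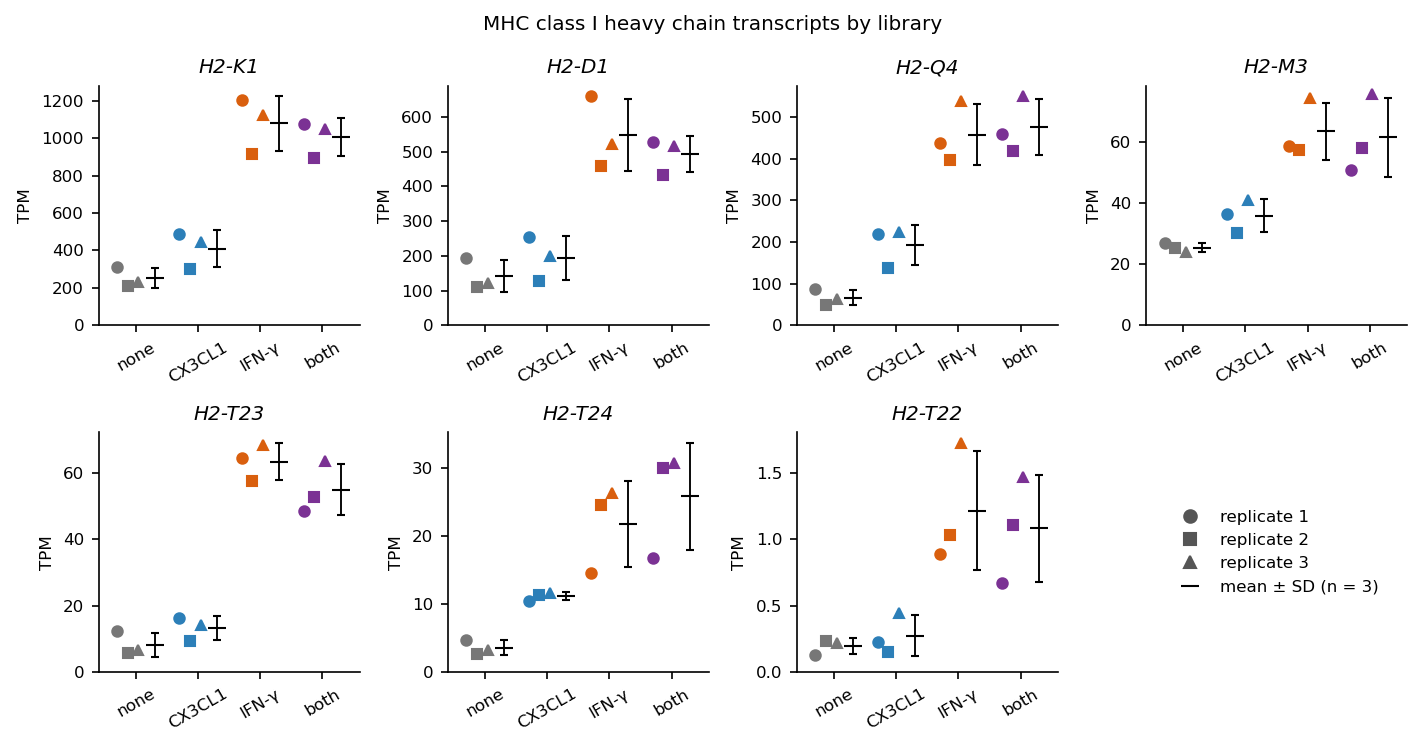
TPM of 7 class I heavy chains in each library (points, 3 per group, shape by replicate number) with mean ± SD in black; none, untreated; both, IFN-γ + CX3CL1; each panel has its own axis from 0. H2-Q7, at 0 in all 12 libraries, is left out. For every gene shown the libraries with IFN-γ alone lie above the untreated ones, as for 20.6% of all genes. Those with both agents lie above those with CX3CL1, as for 14.0%.

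The non-classical chains H2-T23, H2-M3 and H2-T24 lay between 2.64 and 75.6 TPM. H2-T23 was at 12.4, 5.61 and 6.53 TPM in untreated cells, at 16.25, 9.38 and 14.2 TPM with CX3CL1, at 64.6, 57.5 and 68.5 TPM with IFN-γ, and at 48.7, 52.7 and 63.8 TPM with both. H2-M3 was at 26.8, 25.3 and 24.1 TPM untreated, at 36.35, 30.1 and 40.8 TPM with CX3CL1, at 58.4, 57.35 and 74.15 TPM with IFN-γ, and at 50.7, 57.9 and 75.6 TPM with both. H2-T24 was at 4.74, 2.64 and 3.19 TPM untreated, at 10.5, 11.35 and 11.5 TPM with CX3CL1, at 14.6, 24.6 and 26.3 TPM with IFN-γ, and at 16.8, 29.97 and 30.8 TPM with both. H2-M3 and H2-T24 did not overlap between CX3CL1 and untreated libraries, whereas H2-T23 did. The lowest H2-T24 values under IFN-γ, alone or with CX3CL1, were those of replicate 1.

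H2-T22 was near the floor of the table, at 0.127, 0.2345 and 0.221 TPM in untreated cells and 0.891, 1.03 and 1.73 TPM with IFN-γ. With CX3CL1 it was at 0.221, 0.148 and 0.4455 TPM, and with both agents at 0.667, 1.11 and 1.47 TPM. Of its 50-base words, 46.4% also occur in other annotated transcripts, 39.3% in H2-T10, and of its 150-base words 0.971% do. The coding sequences of H2-T22 and H2-T10 are 96.5% identical. H2-T10 itself was at 3.62 to 4.51 TPM untreated and at 16.25 to 19.7 TPM with IFN-γ. The level of H2-T22 relative to H2-T10 is therefore uncertain. So are its fold changes below, since how far reads of H2-T10 enter them was not tested. The more abundant chains share 50-base words too, 28.8% in H2-T23, 24.25% in H2-Q4, 14.3% in H2-D1 and 8.79% in H2-K1. H2-T24 and H2-M3 share 3.235% and 0.576%. Of 150-base words, H2-D1 shares 1.79%, H2-T23 0.831%, and H2-K1, H2-Q4, H2-T24 and H2-M3 share 0%. The part of read sharing in their values was not tested either.

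H2-Q7 was listed at 0 in all 12 libraries, as were its neighbours H2-Q6, H2-Q8 and H2-Q9. Of its 50-base words 40.2% are shared with other annotated transcripts, and of its 150-base words 11.6%. The coding sequences of H2-Q7 and H2-Q6 are 93.2% identical. An exact 0 in a TPM table can be a failed estimate, and neither the sharing of reads nor the haplotype was tested as a reason for it, so no fold is given.

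In untreated cells the order was H2-K1 (251 ± 52.3 TPM), H2-D1 (142.5 ± 45.8), H2-Q4 (66.8 ± 19.1), H2-M3 (25.4 ± 1.36), H2-T23 (8.18 ± 3.68), H2-T24 (3.525 ± 1.09) and H2-T22 (0.194 ± 0.0584; mean ± SD, n = 3), and no neighbours overlapped. In treated cells some neighbours could not be ordered. H2-D1 and H2-Q4 overlapped in each of the 3 treated groups. H2-T23 and H2-T24 overlapped with CX3CL1 alone, and H2-T23 and H2-M3 overlapped in both groups given IFN-γ.

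IFN-γ against untreated asked how the cytokine alone acted on the class I genes. Of the 8 genes, 7 passed the filter of a mean of at least 0.2 TPM, and all 7 tested rose, against 5.91% of the 11878 genes tested that were called higher (702 higher and 230 lower). The split of calls was 647 higher and 347 lower with median-ratio scaling and 556 higher and 536 lower with quantile normalization. H2-T23 had the largest fold change, with a log2 value of 2.88 (SE 0.24, limma adjusted p = 8.2e-06) and a ratio of mean TPM of 7.77. H2-Q4 rose by 2.79 (SE 0.22, adjusted p = 6.6e-06), a 6.86-fold ratio of means. H2-T24 rose by 2.32 (SE 0.25), H2-K1 by 2.11 (SE 0.19) and H2-D1 by 1.96 (SE 0.25), with ratios of 6.19, 4.30 and 3.84 and adjusted p-values of 6.3e-05, 1.3e-05 and 2.2e-04. H2-M3 rose least among the abundant members, by 1.28 (SE 0.16, adjusted p = 1.6e-04), a 2.49-fold ratio.

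The fitted change of H2-T22, 0.88 (SE 0.17, adjusted p = 0.00515), is held down by the pseudocount of 1. With a pseudocount of 0.1 it was 2.13 (adjusted p = 0.00241), and the ratio of means was 6.27. Over the 7 genes the median log2 fold change was 2.11, beside 0.03 over all genes tested. Each of the 7 had its IFN-γ libraries above all its untreated ones, as had 20.6% of all genes. These calls held in each alternative fit that tested the gene and with each library left out, H2-T22 not being tested under the filter of 1 TPM. With the replicate number as a block all 7 were called, beside 11.4% of all genes.

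**Figure D2:**
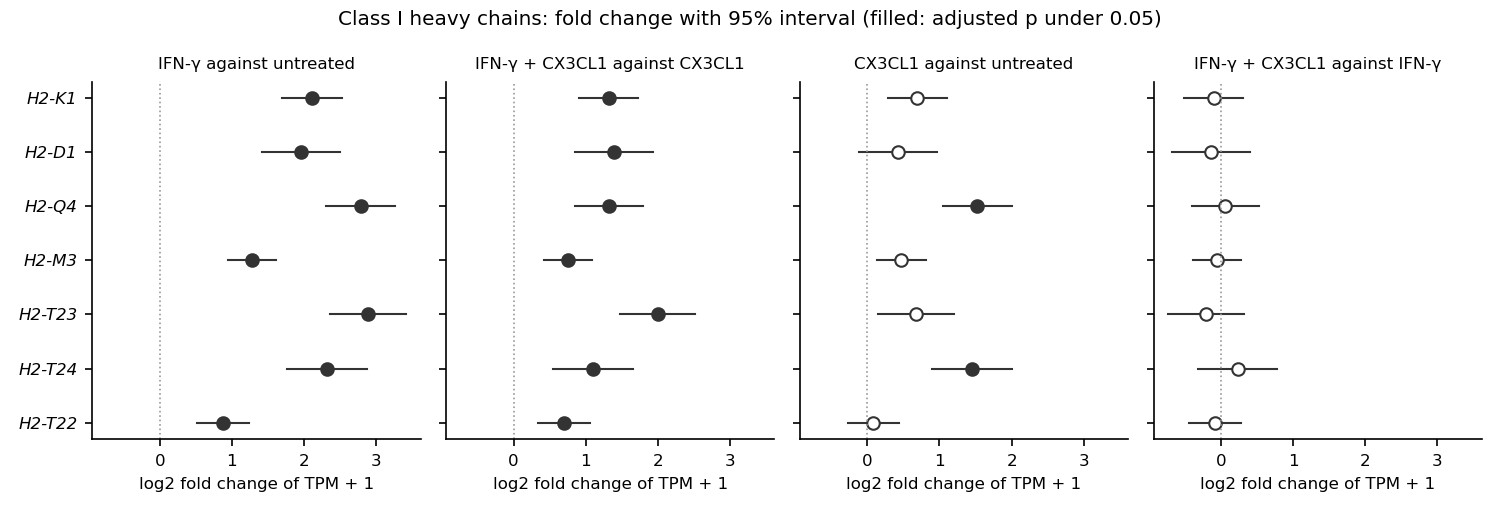
Log2 fold change of TPM + 1 (points) with its 95% interval (lines) for 7 class I heavy chains in 4 comparisons; filled points have a limma adjusted p under 0.05 over 11878 genes. All 7 are filled for IFN-γ, with and without CX3CL1, only H2-Q4 and H2-T24 for CX3CL1 alone, and none for CX3CL1 on top of IFN-γ.

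IFN-γ + CX3CL1 against CX3CL1 asked the same of cells that also received the chemokine. All 7 genes tested rose again, against 3.76% of all genes called higher (447 higher and 111 lower, or 374 and 176 with median-ratio scaling and 349 and 228 with quantile normalization). With the replicate block they were called beside 8.71%. H2-T23 again had the largest log2 fold change, 2.00 (SE 0.24, limma adjusted p = 4.6e-04), a 4.15-fold ratio of means. H2-D1 rose by 1.39 (SE 0.25), H2-K1 by 1.32 (SE 0.19) and H2-Q4 by 1.32 (SE 0.22), with ratios of means of 2.54, 2.45 and 2.47 and adjusted p-values of 0.00584, 0.00154 and 0.00369. The 7 genes did not overlap between the groups, as was so of 14.0% of all genes in this direction, and their median was 1.32 beside 0.04 over all genes.

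The calls of H2-T24, H2-T22 and H2-M3 in this comparison depended on the fit and on single libraries. H2-T24 rose by 1.10 (SE 0.25, limma adjusted p = 0.0265), but was called without 1 library only when that library was replicate 1 of the group with both agents. Without CX3CL1 replicate 1, 2 or 3 its adjusted p was 0.0755, 0.0532 and 0.0667, and without replicate 2 or 3 of the group with both agents 0.0784 and 0.122. It was also lost with no filter (adjusted p = 0.0724) and with quantile normalization (adjusted p = 0.0541). H2-T22 rose by 0.70 (SE 0.17, adjusted p = 0.0295). Its adjusted p was 0.0822 and 0.0762 without CX3CL1 replicates 1 and 2, and 0.0685 and 0.14 without replicates 2 and 3 of the group with both agents. With no filter, quantile normalization and only the libraries compared it was 0.0559, 0.0755 and 0.0698. H2-M3 rose by 0.75 (SE 0.16, adjusted p = 0.0143) and missed the threshold without replicate 3 of the group with both agents (adjusted p = 0.0705) and in a fit of only the libraries compared (adjusted p = 0.0615). Without that replicate 3, 4 of the 7 genes were called, and each of these 3 other fits called 5 of the 7. Over all genes, 221 of 11878 were called higher without that replicate 3, and 364 of 16889 with no filter. Quantile normalization and only the libraries compared gave 349 and 286 of 11878.

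CX3CL1 against untreated asked whether the chemokine alone moved class I transcripts. H2-Q4 and H2-T24 rose, 2 of the 7 genes tested, against 1.78% of all genes called higher (212 of 11878). H2-Q4 rose by a log2 value of 1.52 (SE 0.22, limma adjusted p = 0.00209), a 2.89-fold ratio of means, and H2-T24 by 1.45 (SE 0.25, adjusted p = 0.00727), a 3.16-fold ratio. Both were called in every alternative fit and with every library left out, with adjusted p of at most 0.0151 for H2-Q4 and 0.0473 for H2-T24. Without CX3CL1 replicate 2, the library that stood apart, the values were 1.75 (adjusted p = 0.00139) and 1.43 (adjusted p = 0.0303).

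The other 5 did not pass in the main fit. H2-K1 had a log2 fold change of 0.69 (95% interval 0.28 to 1.10, limma adjusted p = 0.113). H2-T23 had 0.68 (0.15 to 1.20, adjusted p = 0.329) and H2-M3 0.47 (0.13 to 0.81, adjusted p = 0.253). H2-D1 had 0.43 (−0.11 to 0.97, limma adjusted p = 0.842) and H2-T22 0.08 (−0.27 to 0.44, adjusted p = 1). The call of H2-K1 depended on the fit and on single libraries. With the replicate block on all 12 libraries H2-K1 passed (limma adjusted p = 0.00309), beside 347 of 11878 genes called higher. Its adjusted p was 0.0148 without CX3CL1 replicate 2 and 0.0464 without untreated replicate 1. Without untreated replicate 1, H2-T23 also passed (adjusted p = 0.0226), so that 4 of 7 were called. In that fit 228 of 11878 genes were called higher. CX3CL1 libraries lay above all untreated ones in 3 genes, H2-Q4, H2-T24 and H2-M3, against 5.50% of all genes. The median over the 7 was 0.68, beside −0.02 over all genes tested.

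IFN-γ + CX3CL1 against IFN-γ asked whether CX3CL1 added to the cytokine. None of the 7 genes was called by limma, and none had an unadjusted p under 0.05, while 0.345% of all genes were called higher, or 0.749% with the replicate block. Log2 fold changes ran from −0.21 in H2-T23 (95% interval −0.73 to 0.32) to 0.23 in H2-T24 (−0.32 to 0.78). The intervals for H2-K1 (−0.51 to 0.31), H2-D1 (−0.68 to 0.40) and H2-Q4 (−0.41 to 0.53) leave room for changes in either direction. In this comparison 8.54% of all genes, and none of the 7, had all libraries of the first group above those of the second.

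The interaction is the log2 effect of CX3CL1 on cells given IFN-γ minus its effect alone. It was below 0 in all 7 genes, and above 0 in 6353 of all 11878. The interaction uses the untreated libraries that the comparisons above also use. The 7 genes share their libraries, so their signs are not independent. None of the 7 was called by limma, as 0% of all genes were. Of the 7, 5 had an unadjusted p under 0.05, as had 273 of all 11878 genes. H2-Q4 had the most negative value, −1.46 (95% interval −2.13 to −0.79, adjusted p = 0.202), followed by H2-T24 with −1.22 (−2.00 to −0.44, adjusted p = 0.638). Values for H2-T23, H2-K1, H2-D1, H2-M3 and H2-T22 were −0.89, −0.79, −0.57, −0.52 and −0.18. For H2-Q4 the call depended on the fit, since with the replicate block it passed (adjusted p = 0.0166). On the log2 scale an interaction compares ratios, and in mean TPM H2-Q4 differed by 126.4 between CX3CL1 and untreated cells and by 18.1 between both agents and IFN-γ.

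Summed over the 8 genes, class I heavy chains made up 407 to 637 TPM in untreated libraries, 616 to 1023 TPM with CX3CL1, 1916 to 2441 TPM with IFN-γ and 1887 to 2290 TPM with both. H2-K1, H2-D1 and H2-Q4 together held 91.7% to 94.65% of that sum in every library. The share of H2-Q4 was 13.3% ± 0.967 in untreated cells, 22.5% ± 1.27 with CX3CL1, 20.55% ± 2.48 with IFN-γ and 22.4% ± 1.49 with both (mean ± SD, n = 3). Its lowest share in a treated library, 17.96%, lay above its highest untreated share, 14.1%. H2-K1 stayed between 45.9% and 52.1% throughout, and H2-D1 held 28.3% ± 2.02 in untreated cells, 22.35% ± 2.24 with CX3CL1, 24.4% ± 2.48 with IFN-γ and 23.3% ± 0.858 with both. The ratio of H2-Q4 to H2-K1 was 0.281, 0.235 and 0.273 in the untreated libraries and 0.449, 0.462 and 0.501 with CX3CL1, with means of 0.426 with IFN-γ and 0.474 with both. These ratios were taken up after the levels were known and carry no test. Shares and ratios also depend on how well the reads of each gene matched the reference, which was not tested.

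**Figure D3:**
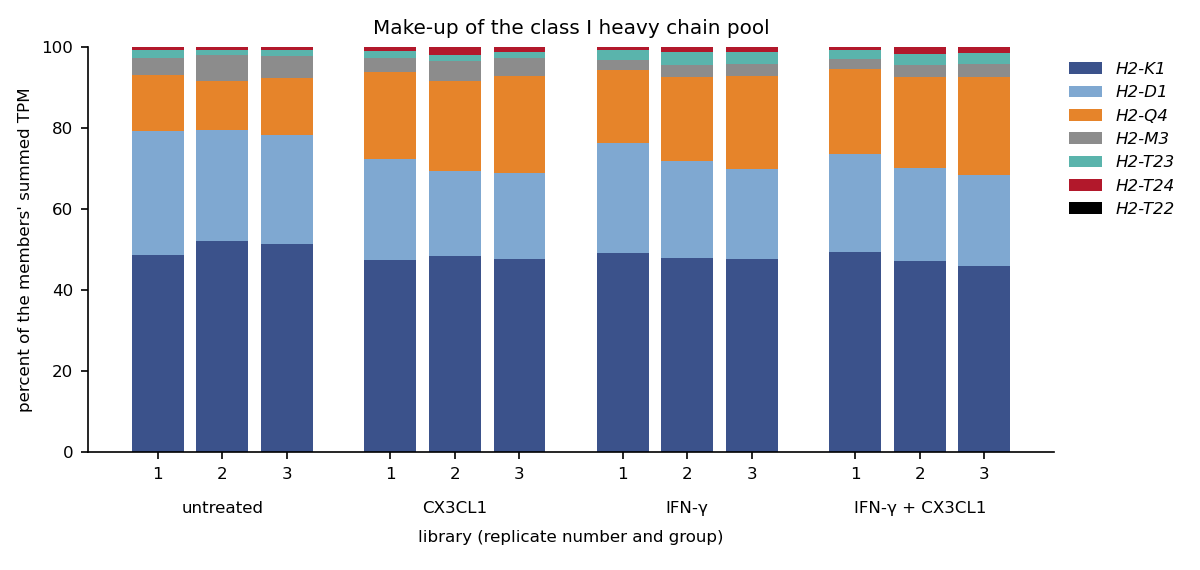
Percent of the summed TPM of the class I heavy chains held by each gene (stacked bars, 0 to 100) in each of the 12 libraries. H2-Q4 takes 12.2% to 14.1% in untreated libraries and 17.96% to 24.02% in the 9 treated ones.

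The shares of H2-T23 and H2-M3 differed between untreated and IFN-γ libraries in opposite directions, again as a description with no test. H2-T23 made up 1.59% ± 0.309 of the sum in untreated cells, 1.54% ± 0.0393 with CX3CL1 and 2.85% ± 0.185 with IFN-γ. H2-M3, whose fold change was the smallest of the abundant members, went from 5.26% ± 1.01 in untreated cells to 2.845% ± 0.399 with IFN-γ (mean ± SD, n = 3). Its untreated libraries, at 4.20% to 6.22%, all lay above its IFN-γ libraries, at 2.39% to 3.15%.

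A list of 16 genes of class I peptide supply, assembly and regulation was read beside the heavy chains, and all 16 passed the filter. With IFN-γ 13 rose and none fell, against 5.91% of all genes called higher. With IFN-γ on top of CX3CL1 12 rose, against 3.76%, and the list medians were 1.93 and 1.44. PSMB9, PSMB8 and PSMB10, the inducible subunits of the immunoproteasome, rose by log2 values of 4.92, 3.77 and 2.75 with IFN-γ. TAPBP, or tapasin, which tethers empty heavy chains to the TAP transporter, rose by 3.35 (SE 0.18, limma adjusted p = 1.1e-06), TAP1 by 2.80 and TAP2 by 1.90. The general endoplasmic chaperones CALR, CANX and PDIA3, which also serve other glycoproteins, were the 3 that did not pass, at 0.23, −0.11 and 0.08. The regulators NLRC5 and IRF1 rose by 2.37 and 2.31. TAP2 passed for IFN-γ alone but not on top of CX3CL1 (1.19, adjusted p = 0.116). With the replicate block it passed there too (limma adjusted p = 3.7e-04), which made 13 of 16, beside 8.71% of all genes.

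B2M, the light chain, was at 2994, 1457 and 1964 TPM in untreated cells and 8146, 6083 and 7246 TPM with IFN-γ, a log2 change of 1.80 (SE 0.25, limma adjusted p = 4.0e-04). CX3CL1 libraries held 3347, 2796 and 2428 TPM and overlapped the untreated ones. As listed, B2M exceeded the summed heavy chains in every library. The ratio was 3.58 to 4.70 in untreated cells and 2.59 to 4.54 with CX3CL1. It was 3.08 to 3.34 with IFN-γ and 3.19 to 4.55 with both, and these ranges overlap in part. How far the haplotype lowers the summed heavy chains was not tested.

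With CX3CL1 alone 1 of the 16 rose, TAPBP, against 1.78% of all genes called higher, and the list median was 0.53. TAPBP was at 99.4, 63.6 and 63.8 TPM untreated and at 200.4, 166 and 234 TPM with CX3CL1, a log2 change of 1.41 (SE 0.18, limma adjusted p = 0.00106). NLRC5 and IRF1 had 0.70 (limma adjusted p = 0.576) and 0.53 (adjusted p = 0.778). Without CX3CL1 replicate 2 the count was 6 of 16, and without untreated replicate 1 it was 3. Over all 11878 genes, 230 and 228 were called higher in these fits. With the replicate block 5 of the 16 passed, beside 347 of 11878 genes. None of the 16 passed for CX3CL1 on top of IFN-γ.

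**Figure D4:**
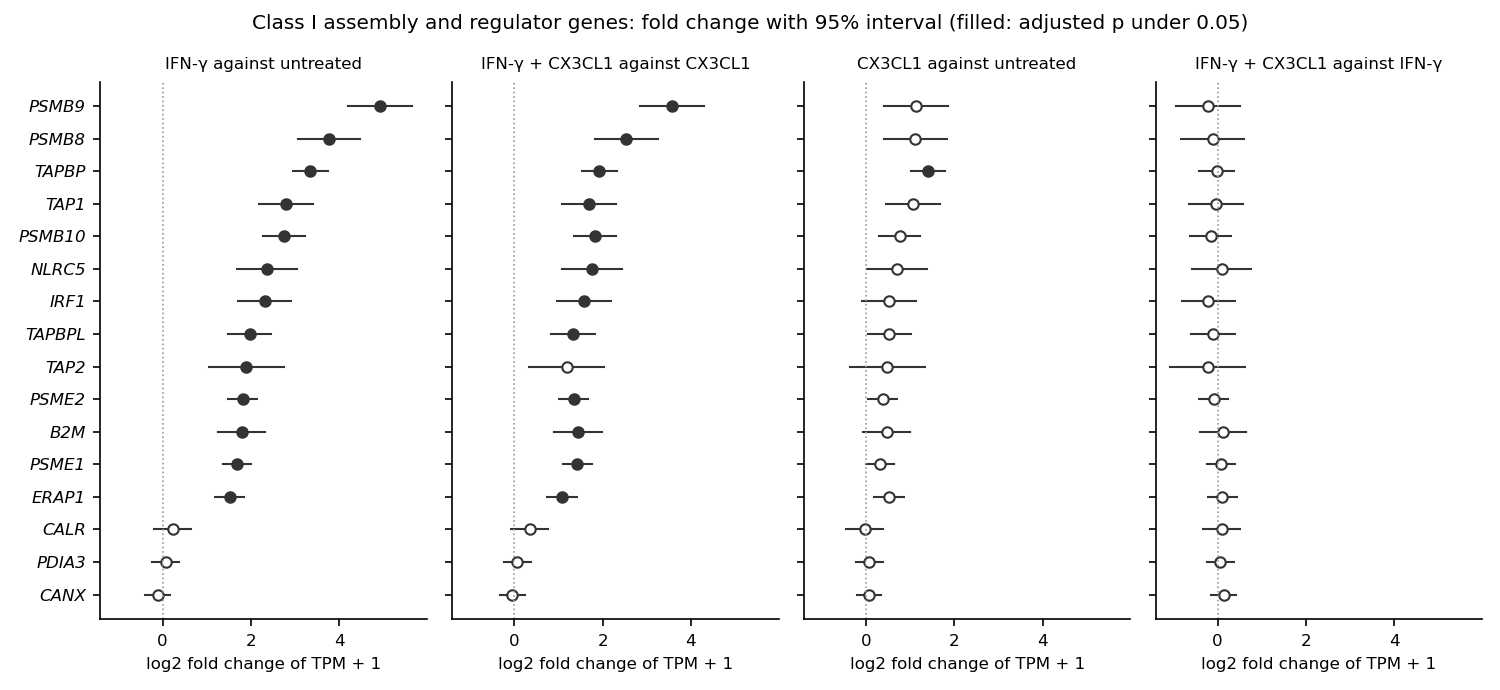
Log2 fold change of TPM + 1 (points) with its 95% interval (lines) for 16 genes of class I peptide supply, assembly and regulation, ordered by their IFN-γ effect; filled points have a limma adjusted p under 0.05 over 11878 genes. With IFN-γ 13 are filled and the chaperones CALR, PDIA3 and CANX lie near 0; with CX3CL1 alone TAPBP is filled.

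The table holds 25 further class I symbols of the H2 complex, of which 10 passed the filter and 10 were at 0 in all libraries. With IFN-γ 8 of the 10 tested rose, by 1.46 in H2-BL to 1.91 in H2-T10, against 5.91% of all genes called higher. These same 8 also rose with IFN-γ on top of CX3CL1, against 3.76%. Without replicate 1 or 3 of the group with both agents, 5 rose in the latter comparison, beside 305 and 221 of 11878 genes. H2-M5 and H2-M10.1, at 0.02 and 0.10, did not pass with IFN-γ. With CX3CL1 alone none passed by limma, and H2-T10 came nearest (0.67, adjusted p = 0.0585). In that fit 5 of the 10, and 958 of all 11878 genes, had an unadjusted p under 0.05. A pseudocount of 0.1 let 1 pass, beside 241 of 11878 genes called higher. Without CX3CL1 replicate 2, 3 of the 10 passed, beside 230 of 11878 genes. With the replicate block 4 of the 10 passed, beside 347 of 11878 genes. The sum of the 25 symbols was 20.9 to 30.3 TPM in untreated and 91.5 to 114.1 TPM in IFN-γ libraries. As listed they added little to the 8 genes. How far reads of the more abundant heavy chains enter their values and fold changes was not tested. H2-L, a class I gene known from haplotype d, was listed at 0 to 0.452 TPM. Neither the haplotype b of the reference nor the sharing of reads was tested as a reason for this low value.

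Class I-like genes outside the complex were read as well. Of 15 listed, 6 passed the filter, and none was called higher in any comparison. Over all genes the share called higher was at most 5.91%, with IFN-γ alone, so 0 of 6 does not set them apart. With IFN-γ alone PROCR and HFE lay above all untreated libraries, as 20.6% of all genes did, but were not called. Their log2 changes were 0.71 and 0.56 (limma adjusted p = 0.114 and 0.122). ULBP1 lay below all untreated libraries, also without a call (−0.41, limma adjusted p = 0.0559). While 230 of all 11878 genes were called lower with IFN-γ, 1 of the 6 was, H60B, a ligand of the activating receptor NKG2D. It was at 11.1, 16.9 and 16.7 TPM untreated and at 5.18, 7.39 and 5.11 TPM with IFN-γ, a log2 change of −1.20 (SE 0.24, limma adjusted p = 0.00703).

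The 5 genes whose profile over the 12 libraries was most like the mean profile of the 6 heavy chains with at least 1 TPM, among 10748 candidates, were TAPBP (Pearson r = 0.995), MOV10 (0.994), TAP1 (0.994), IFITM3 (0.993) and PSMB8 (0.993). The 12 points fall into 4 groups and share their libraries, so these values describe the profiles and carry no p. Between the heavy chains themselves, r ran from 0.834 for H2-D1 and H2-T24 to 0.989. After subtraction of group means, H2-T24 had r of −0.0285 with H2-K1 and −0.0452 with H2-D1, while H2-Q4 and H2-T23 had 0.921.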

How the data were processed

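Per the labels, the authors prepared strand-specific mRNA libraries (Kapa mRNA HyperPrep) and aligned them to mm10 with STAR 2.7.3a, with DESeq2 1.22.1 also named in the submitters' processing notes. Doses and time come from the study's methods and figure caption. Its results text describes IFN-γ and TNF-α given before CX3CL1, whereas the labels and the caption name IFN-γ only. The order of the agents is therefore uncertain, and "on top of" names the groups compared, not an order. The deposited values are TPM, scaled by the authors to 1000000 in each library, so read depth is unknown, no counting error can be given, and the spread of 3 replicates sets the precision. The annotation and the treatment of reads that match several genes are not given in the sources used here.

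From the TPM, log2(TPM + 1) was fitted in R 4.3.3 with limma 3.58.1 (eBayes with an intensity trend) over all 12 libraries and the 11878 genes whose mean reached 0.2 TPM. Benjamini-Hochberg adjustment ran over all of these genes in each comparison, and calls were made at 0.05. A fold change on this scale understates that of low genes. On data simulated for IFN-γ against untreated over 11878 genes, the test found 177 of 200 genes changed by 1 on the log2 scale (11 false calls) and 199 of 200 changed by 2 (16 false calls). The simulated noise was independent between libraries, unlike that of the same-numbered libraries described below. The changed genes left out low ones such as H2-T22. Nothing in the labels says what separated the biological replicates, so p-values measure the spread between these samples.

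Same-numbered libraries deviated together from their group means, with r of 0.220 to 0.460 for IFN-γ against untreated, 0.351 to 0.428 for IFN-γ + CX3CL1 against CX3CL1 and 0.630 to 0.649 for IFN-γ + CX3CL1 against IFN-γ. In these comparisons the replicate number was therefore read as pairing. The main fit has no replicate term, so its SE and p-values leave the pairing out. The replicate block was an alternative fit, and its values are given where it is named. The 8 genes, the gene lists and the patterns were chosen with earlier results of these data known. The genes named are the 8, members of the lists, and the 5 most like profiles. A further gene first placed in the assembly list is not reported here. Shared words were counted in GENCODE transcripts, and promoters come from RefSeq. The fits were repeated with 0.1 as pseudocount, with the filter dropped or raised to 1 TPM, with quantile normalization or median-ratio scaling, on the compared libraries alone, without the intensity trend, with a replicate block, and with each library left out.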

Additional observations from a re-analysis of the deposited data

How the results depend on the processing

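TPM give no depth, and groups of 3 set the precision. Of 520 alternative values for single genes, 499 kept their side of the threshold, and 16 lost and 5 gained a call. The sign differed in 9, none of them called, 8 for CX3CL1 on top of IFN-γ and 1 for CX3CL1 alone. The calls of the 7 genes tested for IFN-γ alone held throughout (7 with each library left out), as did the absence of calls for CX3CL1 on top of IFN-γ (0). With single libraries left out, 4 to 7 genes were called for IFN-γ on top of CX3CL1, 2 to 4 for CX3CL1 alone and 0 for the interaction. Calls over all genes were then 530 to 764 for IFN-γ alone, 270 to 668 for IFN-γ on top of CX3CL1, 152 to 268 for CX3CL1 alone, 16 to 54 for CX3CL1 on top of IFN-γ and 0 to 11 for the interaction. A fit of only the libraries compared gave 344 calls for IFN-γ on top of CX3CL1 (558 in the fit of all libraries) and 20 for CX3CL1 on top of IFN-γ (43), which fell to 28 with no filter, and quantile normalization gave 1 interaction call. The cause was not tested.

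With the replicate block, calls over all genes went from 932 to 1929 for IFN-γ alone, from 558 to 1369 for IFN-γ on top of CX3CL1 and from 43 to 95 for CX3CL1 on top of IFN-γ, and no call of the 7 genes changed there. For CX3CL1 against untreated the numbers were not taken as pairing, since the lowest r lay under the minimum of 0.1 (r of 0.387, 0.005 and 0.301). Pairing in the other comparisons also ties these groups, so this rule does not show that they are unpaired. For CX3CL1 against untreated the block raised the calls from 232 to 455. H2-K1 then passed (0.69, limma adjusted p = 0.00309), as did 5 of the 16 assembly genes and 4 of the 10 other class I genes. For the interaction it gave 52 calls, 1 of them a heavy chain, H2-Q4 (−1.46, limma adjusted p = 0.0166, against 0.072 to 0.611 in the other alternatives).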
